A study of Mus musculus with 4 samples.

Results

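The 33 genes described here make, regulate or carry cholesterol and fatty acids, and they were chosen by symbol from a list of such genes. They were followed in cultured hippocampal neurons. All 33 were found in the deposited tables, and all 33 reached an FPKM of at least 1 in at least 1 of 4 libraries, out of 13458 genes that did so in the series. FPKM are fragment numbers scaled to transcript length and library size, a level that can be compared between genes. The genes were divided by role into 15 sterol synthesis enzymes, 5 regulators, 5 transport genes and 8 fatty acid synthesis genes.

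RNA was sequenced from hippocampal neurons of P0 CD1 mouse pups, an outbred strain, 1 library per condition. Every culture was infected with a lentivirus on day 4 in vitro and harvested on day 11. The 4 conditions were Kdm6b shRNA with Bic/4AP, Kdm6b shRNA untreated, pLKO.1 vector with Bic/4AP and pLKO.1 vector untreated, where Bic/4AP stands for 3 h in bicuculline (50 µM, written µm in the labels) plus 4-aminopyridine (2.5 mM). The first drug removes GABA-A inhibition and the second closes potassium channels, which raises firing. Kdm6b encodes a demethylase of histone H3 lysine 27. A single hairpin was used and all controls carry the empty vector, so that neither a second hairpin nor uninfected cells stood beside them. With 1 library per condition no difference could be tested. Every value below describes 1 culture per condition, and the bounds given in the authors' tables cover counting and read assignment within a library only.

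Cholesterol is built from acetyl-CoA through mevalonate, squalene and lanosterol. The genes of this pathway are switched on together by SREBP transcription factors when sterols in the endoplasmic reticulum are low, and INSIG proteins hold the SREBP escort SCAP in place when sterols are high. The brain makes its own cholesterol, astrocytes and oligodendrocytes being large producers, and neurons export part of what they turn over. LXR receptors, which sense oxysterols, drive the exporters Abca1 and Abcg1 together with Srebf1.

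The labels give the hairpin's target in Kdm6b, on chromosome 11. It is shown because its capitals are the stretch that would pair with bases 2 to 8 of the antisense strand, if that strand starts opposite the last target base.
Kdm6b hairpin target: ctgttcttgagggACAAACTc

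Promoters of 24 of the 33 genes, in 32 windows, were found in RefSeq (GRCm38.p6). Each window runs from 250 bases before to 50 bases after an annotated start, along the gene's strand. The windows of 4 genes are shown, Insig1 and Idi1 with the largest positive differences and Mvd and Tm7sf2 with large negative differences under Bic/4AP in vector cultures, with the CCAAT box in capitals on either strand (ATTGG is its reverse).
Insig1 promoter, chr5:28071162-28071461, plus strand: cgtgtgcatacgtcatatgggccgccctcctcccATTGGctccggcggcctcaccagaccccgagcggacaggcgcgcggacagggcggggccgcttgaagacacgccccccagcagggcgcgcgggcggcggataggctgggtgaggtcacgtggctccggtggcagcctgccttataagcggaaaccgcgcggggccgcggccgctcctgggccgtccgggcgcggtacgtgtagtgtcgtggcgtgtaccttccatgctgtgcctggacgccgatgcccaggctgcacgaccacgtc
Idi1 promoter, chr13:8885356-8885655, plus strand: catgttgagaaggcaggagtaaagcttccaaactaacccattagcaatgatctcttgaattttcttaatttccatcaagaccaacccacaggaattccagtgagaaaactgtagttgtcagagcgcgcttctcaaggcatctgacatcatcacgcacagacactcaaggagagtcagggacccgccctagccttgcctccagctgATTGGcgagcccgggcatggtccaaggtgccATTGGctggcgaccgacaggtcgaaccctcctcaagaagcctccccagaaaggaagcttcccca
Mvd promoter, chr8:122443373-122443672, minus strand: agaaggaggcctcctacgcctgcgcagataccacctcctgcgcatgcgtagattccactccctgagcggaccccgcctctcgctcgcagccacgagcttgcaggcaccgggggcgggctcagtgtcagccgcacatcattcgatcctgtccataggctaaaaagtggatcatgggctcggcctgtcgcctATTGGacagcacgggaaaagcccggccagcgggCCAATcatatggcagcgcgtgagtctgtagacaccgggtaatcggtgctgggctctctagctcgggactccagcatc
Tm7sf2 promoter, chr19:6067801-6068100, minus strand: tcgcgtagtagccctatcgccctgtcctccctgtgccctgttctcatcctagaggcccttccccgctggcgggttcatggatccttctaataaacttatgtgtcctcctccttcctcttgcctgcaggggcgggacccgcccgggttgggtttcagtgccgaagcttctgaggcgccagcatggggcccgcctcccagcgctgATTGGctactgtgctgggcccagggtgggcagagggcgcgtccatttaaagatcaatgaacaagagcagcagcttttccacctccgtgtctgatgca

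CCAAT, the binding word of NF-Y, a partner of SREBP, was present on either strand in 19 of the 32 windows (59.4%), against 37.4% of all 32851 windows in the table. Among sterol synthesis genes it was in 11 of 15 windows (73.3%), which belong to 11 of 12 genes. Genes on both sides of the Bic/4AP response held it, with words starting 45 and 14 bases before the Idi1 start, 60 and 27 bases before the Mvd start and 47 bases before the Tm7sf2 start. The GC box GGGCGG was in 24 of 32 windows (75.0%), against 35.7% of all windows. An E-box, CACGTG, was in 6 of 32 (18.8%), against 7.15%. The sterol regulatory element core TCACNCCAC was in 0 of 32 windows, against 1.24% of all windows. Each word was searched on both strands, some windows of 1 gene overlap, matches of different words may overlap, and a match is a description of letters only.

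Relative sequencing depth, estimated from the width of the authors' bounds, was 0.994, 1.04, 0.932 and 1 in shRNA Bic/4AP, shRNA untreated, vector Bic/4AP and vector untreated. For the 33 genes the half-width of the bounds was 0.439% to 8.48% of the value. Kdm6b stood at 4.83 and 2.73 FPKM in shRNA cultures with and without Bic/4AP, against 13.1 and 6.74 FPKM in vector cultures. Fos, an immediate-early gene, stood at 765 and 15.3 FPKM in shRNA cultures with and without Bic/4AP, against 771 and 12.5 FPKM in vector cultures. All 7 neuron markers found (Map2 was not analysed) were expressed in all libraries, with a summed FPKM of 1155 to 1611, and astrocyte markers summed to 2790 to 3137 FPKM, so the cultures held glia as well. Oligodendrocyte lineage markers summed to 121 to 144 FPKM, of which Pdgfra, Cspg4 and Sox10 stayed under an FPKM of 1 in every library.

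Among the levels, Scd2, the main brain stearoyl-CoA desaturase, stood far above the other 32 genes, at 773 and 748 FPKM in shRNA cultures with and without Bic/4AP, against 875 and 831 FPKM in vector cultures. Fads2, the delta-6 desaturase of polyunsaturated fatty acid synthesis, came next with 288 and 306 FPKM in shRNA cultures, against 239 and 251 FPKM in vector cultures. Sqle, squalene epoxidase and a rate-controlling step, was the most abundant of the 15 sterol enzymes listed here. It had 161 and 141 FPKM in shRNA cultures, against 152 and 159 FPKM in vector cultures. Abcg1, a sterol exporter, was the least abundant member, at 3.20 and 6.35 FPKM in shRNA cultures, against 2.23 and 4.72 FPKM in vector cultures. The remaining members lay between 9.32 and 135 FPKM.

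**Figure D1:**
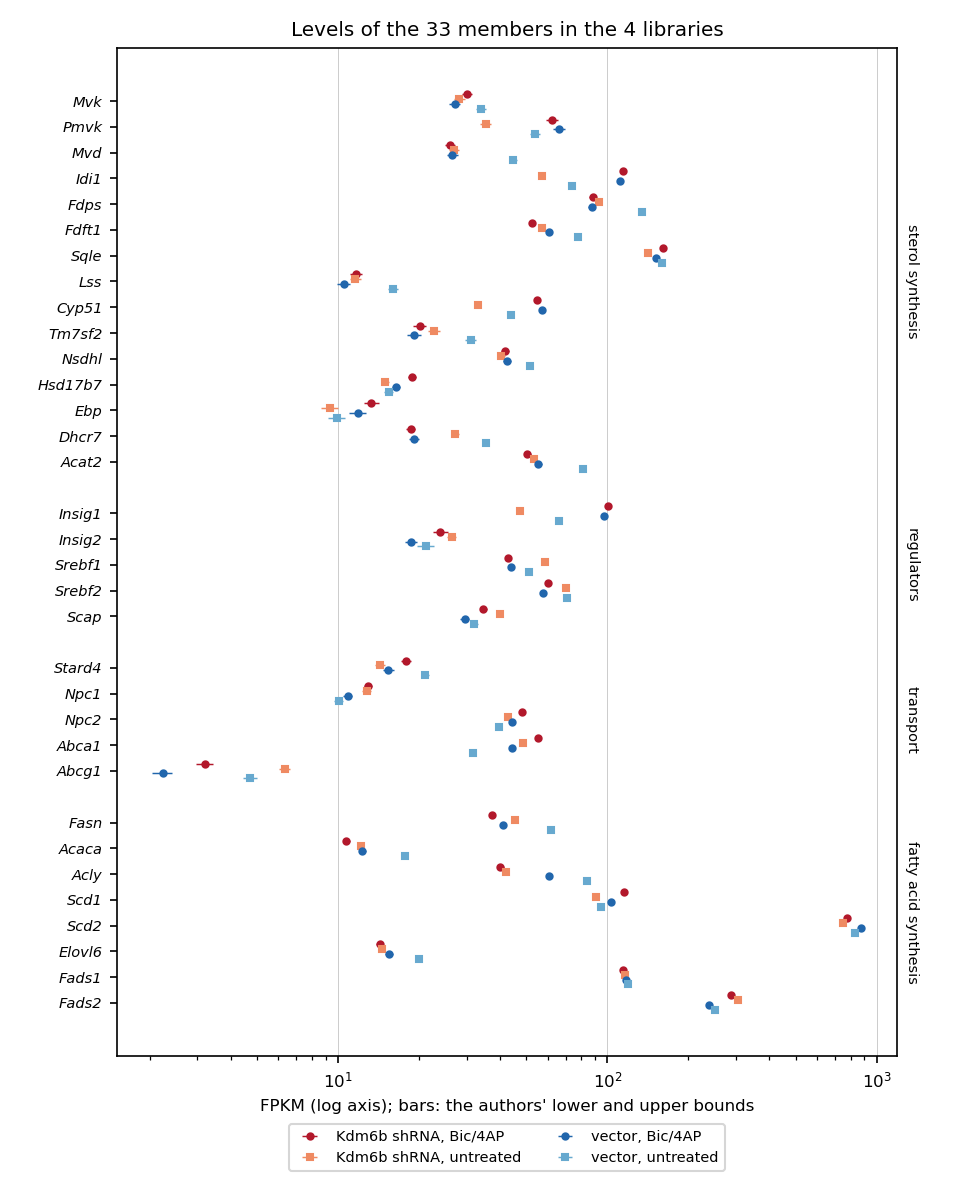
FPKM of the 33 genes on a log axis, grouped by role, in the 4 libraries (circles with Bic/4AP, squares untreated); bars are the authors' bounds. Scd2 lies highest at 748 to 875 FPKM and Abcg1 lowest at 2.23 to 6.35 FPKM.

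Bic/4AP divided the sterol enzymes in vector cultures, and the division did not follow the order of the pathway. Differences are in log2(FPKM + 1), which understates folds at low levels. Genes are counted as higher or lower past a ratio of 5 to 4, which is 0.32 on that scale. Of the 15 sterol enzymes, 7 were lower and 2 higher by that measure with Bic/4AP, with a median difference of -0.32 against -0.07 over all 13458 genes. Of all 33 members, 13 were past 0.32 downwards, where 16.8% of all genes were, and 4 were past it upwards, where 11.1% of all genes were. Above 0 lay 11 of the 33, and 40.6% of all genes. In shRNA cultures 4 sterol enzymes were past 0.32 upwards and 1 downwards, with a median of 0.05 against -0.08 over all genes. There 6 of the 33 were past 0.32 upwards, where 8.18% of all genes were, and 3 downwards, where 13.6% were. Above 0 lay 16 of the 33, and 34.8% of all genes. Neuron markers summed to 1155 and 1296 FPKM in shRNA cultures with and without Bic/4AP, against 1301 and 1611 FPKM in vector cultures, and their part in these differences was not tested.

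Past 0.32 upwards with Bic/4AP in both backgrounds were Idi1 and Cyp51. Idi1 is the enzyme that isomerises isopentenyl diphosphate (mm9 chr13:8884852-8891642). Idi1 had 114 and 57.3 FPKM in shRNA cultures with and without Bic/4AP, against 112 and 73.8 FPKM in vector cultures. Both treated cultures therefore lay above both untreated ones, and the differences were 0.98 in shRNA and 0.59 in vector cultures. Cyp51, the lanosterol demethylase, had 55 and 33 FPKM in shRNA cultures, against 57.1 and 43.8 FPKM in vector cultures, with differences of 0.72 and 0.38. Pmvk and Ebp were past 0.32 in shRNA cultures alone, and whether the backgrounds differ was not tested. Pmvk, phosphomevalonate kinase, had 62.2 and 35.4 FPKM in shRNA cultures, against 66.3 and 53.9 FPKM in vector cultures, with differences of 0.80 and 0.29. Ebp, a sterol isomerase late in the pathway, had 13.3 and 9.32 FPKM in shRNA cultures, against 11.8 and 9.89 FPKM in vector cultures (0.47 and 0.23). Hsd17b7, a sterol ketone reductase, had 18.8 and 14.9 FPKM in shRNA cultures, against 16.4 and 15.4 FPKM in vector cultures, whose bounds overlapped. Sqle differed little in either background, by 0.19 in shRNA and -0.07 in vector cultures, a vector sign that turned under another scaling.

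A second set of sterol enzymes was lower with Bic/4AP in vector cultures and close to level in shRNA cultures. Mvd, mevalonate diphosphate decarboxylase, acts directly before Idi1 (mm9 chr8:124957496-124967322). Its FPKM were 26.1 and 27.1 in shRNA cultures with and without Bic/4AP, against 26.6 and 44.6 in vector cultures, so that the untreated vector library stood apart from the other 3. The differences were -0.05 in shRNA, a sign that turned under another scaling of the libraries, and -0.73 in vector cultures. Fdps, which makes farnesyl diphosphate, had 88.3 and 92.8 FPKM in shRNA cultures, against 87.4 and 135 FPKM in vector cultures (-0.07 and -0.62). Lss, which closes the sterol ring to lanosterol, had 11.7 and 11.6 FPKM in shRNA cultures, against 10.5 and 16 FPKM in vector cultures (0.01 and -0.56). Acat2, the thiolase that starts the pathway, had 50.3 and 53.4 FPKM in shRNA cultures, against 55.5 and 80.9 FPKM in vector cultures (-0.08 and -0.54). The small shRNA differences of Fdps, Lss and Acat2 also changed sign under another scaling.

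Tm7sf2, a sterol C14 reductase, had 20.1 and 22.7 FPKM in shRNA cultures, against 19.1 and 31.1 FPKM in vector cultures (-0.17 and -0.67). Its locus shares 9 bases with 1110014N23Rik. Fdft1, squalene synthase, had 52.6 and 57.2 FPKM in shRNA cultures, against 60.5 and 78.1 FPKM in vector cultures (-0.12 and -0.36). Its locus overlaps that of the protease gene Ctsb by 771 bases, and Ctsb stood at 197 to 240 FPKM, so that its reads are uncertain if the counting ignored strand. Mvk, mevalonate kinase, had 30.1 and 28.2 FPKM in shRNA cultures, against 27.1 and 33.9 FPKM in vector cultures, and its vector difference of -0.32 lay just inside the ratio of 5 to 4. Nsdhl, a sterol decarboxylase, had 41.7 and 40.3 FPKM in shRNA cultures, against 42.3 and 51.5 FPKM in vector cultures (0.05 and -0.28).

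Dhcr7, which encodes the last reductase of the pathway, was the only 1 of the 15 sterol enzymes past 0.32 downwards with Bic/4AP in both backgrounds. Its FPKM were 18.6 and 27.2 in shRNA cultures with and without Bic/4AP, against 19.2 and 35.3 in vector cultures. The differences were -0.52 and -0.85, and both treated libraries lay below both untreated ones. Its differences were opposite in sign to those of Ebp, which acts earlier in the pathway.

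**Figure D2:**
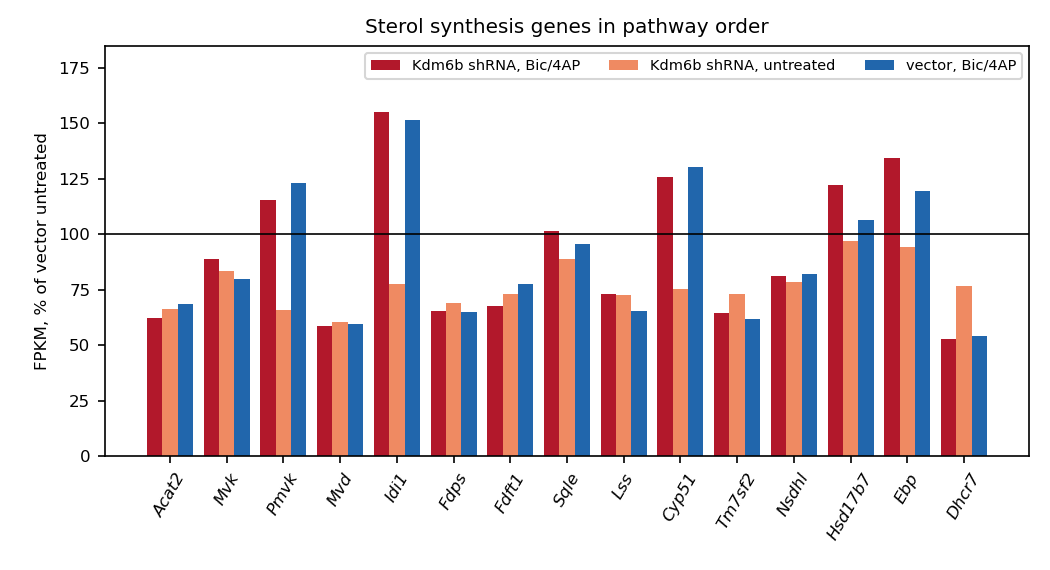
FPKM of the 15 sterol synthesis genes in pathway order as percent of the untreated vector library (line at 100); bars are shRNA with Bic/4AP, shRNA untreated and vector with Bic/4AP. Mvd stood at 60.6% in untreated shRNA and 59.5% in treated vector cultures, while Idi1 stood at 77.7% and 151% in the same libraries.

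Among the regulators Insig1 (mm9 chr5:28397952-28405202) stood apart. Insig1, which retains SCAP in the endoplasmic reticulum and is itself a classical SREBP target, had 101 and 47.4 FPKM in shRNA cultures with and without Bic/4AP, against 97.4 and 66.0 FPKM in vector cultures. Its treated libraries were close together and well above the untreated ones, and the differences were 1.07 in shRNA and 0.55 in vector cultures. In the shRNA comparison it was the only member at least 2-fold higher, where 2.06% of all genes were. Insig2, a retention factor that is not induced by SREBP, had 24.0 and 26.4 FPKM in shRNA cultures, against 18.7 and 21.2 FPKM in vector cultures (-0.13 and -0.17).

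Srebf1, which encodes the SREBP of lipogenesis, had 42.6 and 58.6 FPKM in shRNA cultures, against 43.7 and 51.2 FPKM in vector cultures (-0.45 and -0.23). Its locus shares 107 bases with Rai1. Srebf2, the SREBP of sterol synthesis, had 60.4 and 70.4 FPKM in shRNA cultures, against 57.9 and 71.1 FPKM in vector cultures (-0.22 and -0.29). Scap, the escort gene, showed -0.19 and -0.11. In each background 1 of the 5 regulators, Insig1, lay above 0, beside 34.8% of all genes in shRNA and 40.6% in vector cultures. The group medians were -0.19 in shRNA and -0.17 in vector cultures.

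The 2 LXR-linked exporters went in opposite directions under Bic/4AP. Abcg1 had the lowest shRNA difference of all members, -0.81, beside -0.82 in vector cultures, so its treated levels were 50.4% and 47.3% of the untreated ones. Abca1, which loads cholesterol onto apolipoproteins, had 55.1 and 48.8 FPKM in shRNA cultures, against 44.1 and 31.8 FPKM in vector cultures (0.17 and 0.46). Stard4, a cytosolic sterol carrier and SREBP target, had 17.9 and 14.3 FPKM in shRNA cultures, against 15.4 and 21 FPKM in vector cultures. Its differences, 0.30 and -0.43, had opposite signs. Npc1 and Npc2, which pass cholesterol out of lysosomes, stayed within 0.32, with differences of 0.01 and 0.17 in shRNA and 0.10 and 0.16 in vector cultures. The sign for Npc1 in shRNA cultures turned under another scaling, and its locus shares 276 bases with 3110002H16Rik.

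Of the 8 fatty acid genes, 4 were past 0.32 downwards with Bic/4AP in vector cultures, beside 16.8% of all genes, and 0 in shRNA cultures, beside 13.6%. Fasn, fatty acid synthase, had 37.1 and 45.3 FPKM in shRNA cultures with and without Bic/4AP, against 40.9 and 61.9 FPKM in vector cultures (-0.28 and -0.59). Acaca, the acetyl-CoA carboxylase that feeds it, had 10.7 and 12.1 FPKM in shRNA cultures, against 12.3 and 17.8 FPKM in vector cultures (-0.16 and -0.50). Elovl6, an elongase, had 14.3 and 14.5 FPKM in shRNA cultures, against 15.5 and 19.9 FPKM in vector cultures (-0.02, with a sign that turned under another scaling, and -0.34). Acly, ATP-citrate lyase, was the other one, at -0.46. For these 4 genes, as for Mvd, the untreated vector library was the highest.

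Scd1, a desaturase, was the 1 fatty acid gene past 0.32 upwards in shRNA cultures, with 115 and 90.5 FPKM there, against 103 and 94.7 FPKM in vector cultures (0.35 and 0.12). Scd1 and Scd2 are close paralogs, so that reads may have been divided between them. Fads1, the delta-5 desaturase, stayed between 114 and 119 FPKM in all 4 libraries. The medians of the fatty acid group were -0.05 in shRNA cultures, positive under median-ratio and upper-quartile scaling, and -0.21 in vector cultures.

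**Figure D3:**
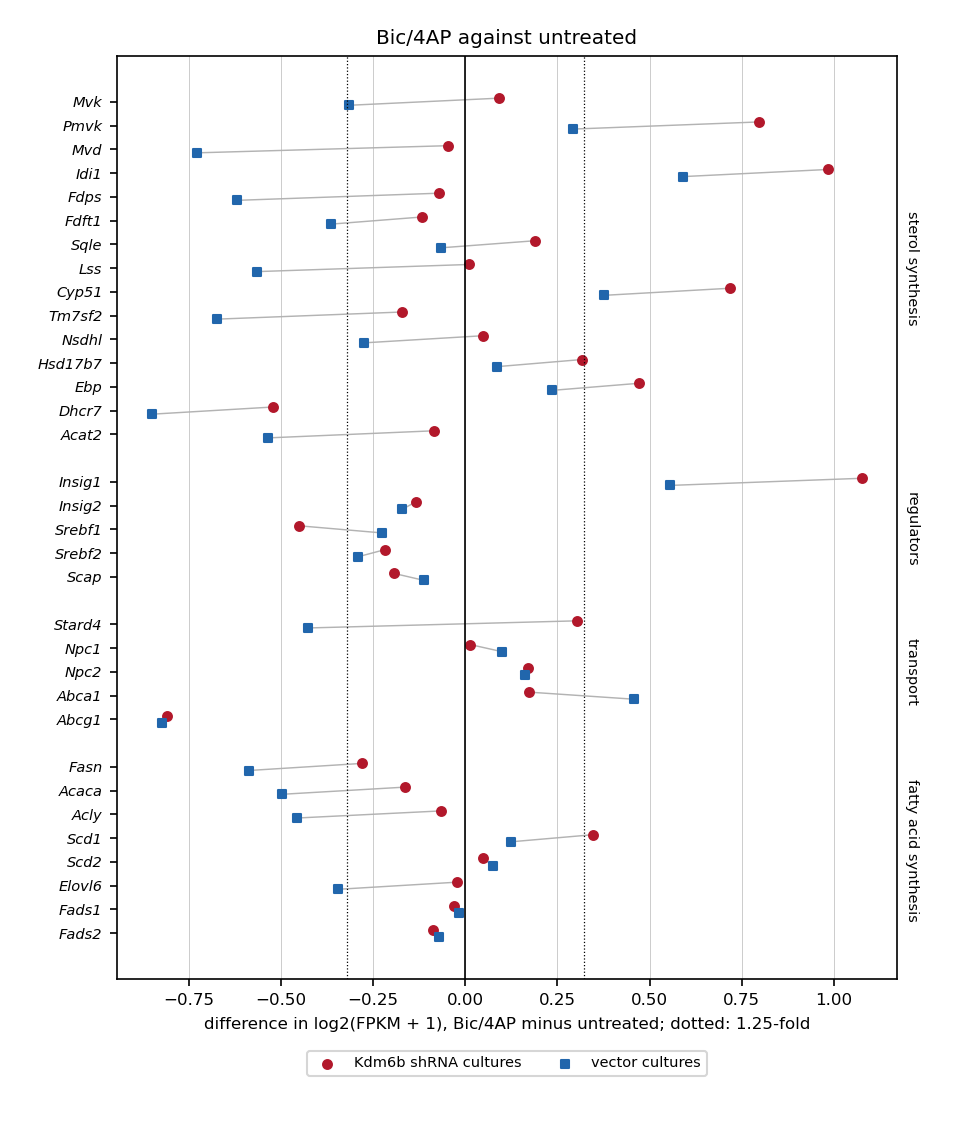
Difference in log2(FPKM + 1), Bic/4AP minus untreated, of the 33 genes in shRNA (circles) and vector cultures (squares); dotted lines mark 0.32 on either side of 0. All 15 sterol enzymes lie further right in shRNA cultures, whereas Abcg1 lies at -0.81 and -0.82.

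For the sterol enzymes the responses of the backgrounds were apart in a single direction. The difference of the 2 responses, shRNA minus vector, was positive for 15 of 15 sterol enzymes, with a median of 0.39 against -0.02 over all genes, and 11 of the 15 exceeded 0.32. Over the 33 members 26 were above 0, where 45.1% of all genes were. Past 0.32 stood 16 members, where 3.54% of all genes were, and 0 were past it downwards, where 3.6% were. The largest values were those of Stard4 (0.73), Mvd (0.68) and Lss (0.57). The smallest were those of Abca1 (-0.29), Srebf1 (-0.22) and Npc1 (-0.09). Medians were 0.27 for fatty acid genes, 0.04 for regulators and 0.01 for transport genes, the last negative with a pseudocount of 5 and under scaling to a common sum. With 1 culture per condition, this difference of responses was not tested.

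The comparison of hairpin and vector showed where that difference lay. Untreated, 15 of 15 sterol enzymes were lower in shRNA cultures, 11 of them past 0.32, with a median difference of -0.40 against 0.05 over all genes. With Bic/4AP, 0 of 15 were past 0.32 in either direction, and the median was 0.01, or -0.029 under median-ratio scaling, against 0.03 over all genes. Summed over the 15 enzymes, shRNA cultures held 765 and 652 FPKM with and without Bic/4AP, against 763 and 862 FPKM in vector cultures. The median absolute difference between treated shRNA and treated vector libraries was 0.09 over the sterol enzymes and 0.14 over all genes, whereas between the untreated ones it was 0.40 and 0.16. The untreated vector library enters both the vector response and the untreated hairpin comparison, so those results share it. It held the highest value of 9 of the 15 sterol enzymes, and how often it was highest over all genes was not counted. The untreated shRNA library held the lowest value of 7 of the 15, and this too was not counted over all genes. An effect of the hairpin at rest and a deviation of either untreated culture cannot be told apart.

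Over all 33 members, 17 were past 0.32 downwards with the hairpin untreated, where 9.37% of all genes were, and 2 upwards, where 13% were. Above 0 lay 8 of the 33, and 58.8% of all genes. With Bic/4AP, 1 member was past 0.32 downwards, where 7.92% of all genes were, and 2 upwards, where 9.74% were. Above 0 lay 19 of the 33, and 56.4% of all genes. The largest untreated differences among sterol enzymes were those of Mvd (-0.70), Pmvk (-0.59), Acat2 (-0.59) and Fdps (-0.53), and the smallest those of Hsd17b7 (-0.04) and Ebp (-0.08).

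Acly, which supplies cytosolic acetyl-CoA to both branches (mm9 chr11:100337666-100389314), was the member furthest below vector in both states. It had 40.04 and 41.9 FPKM in shRNA cultures with and without Bic/4AP, against 60.8 and 83.8 FPKM in vector cultures. Both shRNA libraries were below both vector libraries, by -0.59 with Bic/4AP and -0.98 untreated, that is 65.9% and 50.0% of the vector level. Fasn (-0.44), Acaca (-0.52) and Elovl6 (-0.43) were lower untreated, but with Bic/4AP they lay at -0.13, -0.18 and -0.11. Fads2 stood at 0.27 with Bic/4AP and 0.29 untreated, and Scd2 at -0.18 and -0.15.

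Outside the synthesis enzymes the genes past 0.32 were mixed, and more genes lay above 0 than below. Of the 5 transport genes, 1 was past 0.32 upwards and 0 downwards with Bic/4AP, and 2 upwards and 1 downwards untreated. Of the 5 regulators, 1 was past it upwards and 0 downwards with Bic/4AP, and 0 upwards and 1 downwards untreated. Of all genes, 9.74% were past it upwards and 7.92% downwards with Bic/4AP, and 13% and 9.37% untreated. Above 0 lay 5 transport genes and 4 regulators with Bic/4AP, beside 56.4% of all genes. Untreated, 4 transport genes and 3 regulators lay above 0, beside 58.8% of all genes. The member exporters Abca1 and Abcg1 were higher with the hairpin in both states. Abca1 was higher by 0.32 (just inside the ratio of 5 to 4) with Bic/4AP and 0.60 untreated, and Abcg1 by 0.38 and 0.36. For Abca1 both shRNA libraries were above both vector libraries, whereas for Abcg1 the treated shRNA library, at 3.20 FPKM, lay under the untreated vector library. Npc1 had 12.9 and 12.8 FPKM in shRNA cultures, against 10.8 and 10.1 FPKM in vector cultures (0.23 and 0.32). Insig2 was higher by 0.34 and 0.31 and Scap by 0.23 and 0.31, and for both genes each shRNA library was above each vector library. Srebf1 lay at -0.03 with Bic/4AP and 0.19 untreated, and Srebf2 at 0.06 and -0.01. Insig1 (0.05 and -0.47) and Stard4 (0.21 and -0.52) were below vector untreated only.

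**Figure D4:**
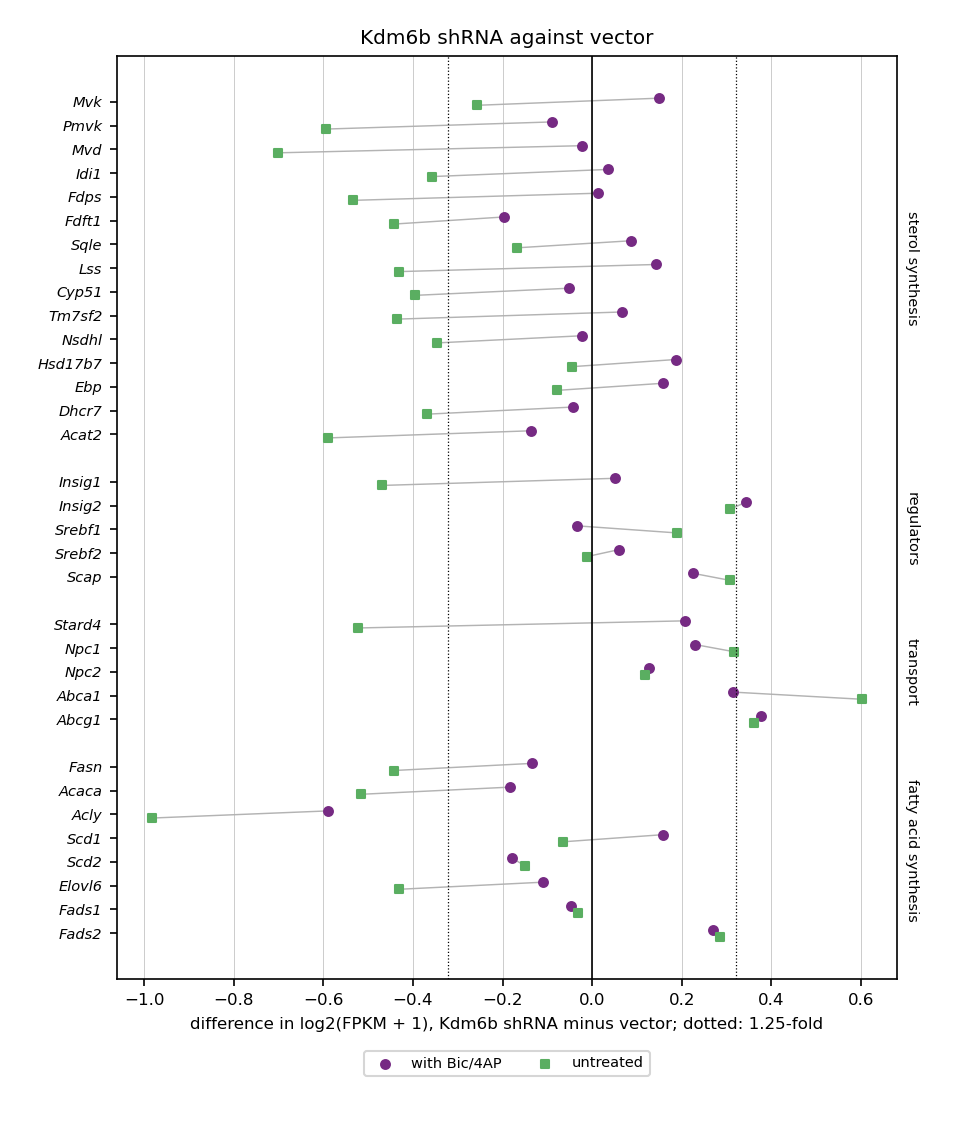
Difference in log2(FPKM + 1), Kdm6b shRNA minus vector, of the 33 genes with Bic/4AP (circles) and untreated (squares); dotted lines mark 0.32 on either side of 0. Untreated, all 15 sterol enzymes lie left of 0, at -0.70 to -0.04, and with Bic/4AP they lie between -0.20 and 0.19.

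Cell type markers differed between the same libraries. Untreated, neuron markers summed to 1296 FPKM in shRNA and 1611 FPKM in vector cultures, with 0 of 7 above 0 and a median of -0.44. Microglia markers summed to 21.1 and 50.1 FPKM, oligodendrocyte lineage markers to 127 and 141 FPKM, and astrocyte markers to 2790 and 2900 FPKM, in shRNA and vector cultures. Few genes carry these sums. Gfap alone stood at 1533 and 1514 FPKM, while Slc1a2 stood at 75.4 and 125 FPKM. Bounds were apart for Tyrobp, C1qa, C1qb and C1qc, but overlapped for Aif1, Cx3cr1 and P2ry12. Of the astrocyte markers 5 of 8 were above 0 in both states, with medians of 0.05 with Bic/4AP and 0.02 untreated. With Bic/4AP the sums in shRNA and vector cultures were 1155 and 1301 FPKM for neurons, 21.8 and 46.7 for microglia, 121 and 144 for the oligodendrocyte lineage and 3137 and 3109 for astrocytes. Endothelial and fibroblast markers summed to 14.4 to 19 FPKM, with Cldn5 listed at 0 in treated vector cultures. With Bic/4AP, 2 of 7 neuron markers were above 0 (median -0.27), as were 2 of 8 microglia markers (median -0.77, against -0.97 untreated with 1 of 8 above 0) and 1 of 8 oligodendrocyte lineage markers (median -0.39, against -0.34 untreated with 0 of 8). The median of the neuron markers therefore lay closer to 0 with Bic/4AP than untreated, as that of the sterol enzymes did. Their difference of responses, shRNA minus vector, was above 0 for 6 of 7, with a median of 0.26 and 2 past 0.32, Rbfox3 (0.41) and Gad1 (0.38). The same medians were 0.08 for astrocyte, 0.08 for microglia and -0.06 for oligodendrocyte lineage markers. The part of cell composition in the lipid gene differences was not tested, and fewer cells of a type cannot be told apart from less RNA per cell.

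The base composition of the transcripts went with the Bic/4AP response and, among sterol enzymes, with its difference between backgrounds. Across the 33 genes, the GC share of the longest coding transcript (GENCODE M21) had a Spearman rho of -0.55 with the response in shRNA and -0.44 in vector cultures, and a Pearson r of -0.45 and -0.41. Across 11768 compared genes with a transcript, rho was -0.19 and -0.22. The points share their libraries and are not replicates. Idi1, the most AT-rich member at 41.9% GC, had the highest response of the 15 sterol enzymes. Mvd and Tm7sf2, at 59.3% and 56.5%, were among the lowest in vector cultures. Pmvk, at 57.0% GC, was higher with Bic/4AP, and Dhcr7, the lowest in vector cultures, is at 52.8%. For the sterol enzymes, rho with the response was -0.40 in shRNA and -0.58 in vector cultures. Bands under 45, 45 to 50, 50 to 55 and over 55% GC held 2, 4, 5 and 4 of them. Their medians in these bands were 0.65, 0.12, -0.07 and 0.02 in shRNA cultures, beside -0.03, -0.05, -0.09 and -0.14 over all genes. In vector cultures they were 0.34, -0.17, -0.56 and -0.49, beside 0.01, -0.03, -0.08 and -0.16. Across the 15 sterol enzymes, rho between GC and the difference of responses was 0.62 and Pearson's r 0.59, beside a rho of 0.11 over all 11768 genes. Across all 33 members the same rho was -0.006 and Pearson's r -0.06. Transcript length had a rho of -0.44 with the difference of responses across the 33. That rho was -0.37 across the 15 and 0.02 over all genes. Between GC and the hairpin difference, rho across the 15 was -0.10 with Bic/4AP and -0.52 untreated. It was -0.07 and -0.03 across the 33, and -0.05 and -0.11 over all genes. The difference of responses had sterol medians of 0.31, 0.33, 0.33 and 0.50 in bands under 45, 45 to 50, 50 to 55 and over 55% GC, beside -0.04 to 0.00 over all genes. The part of GC or transcript length in the responses and in the hairpin differences was not tested.

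**Figure D5:**
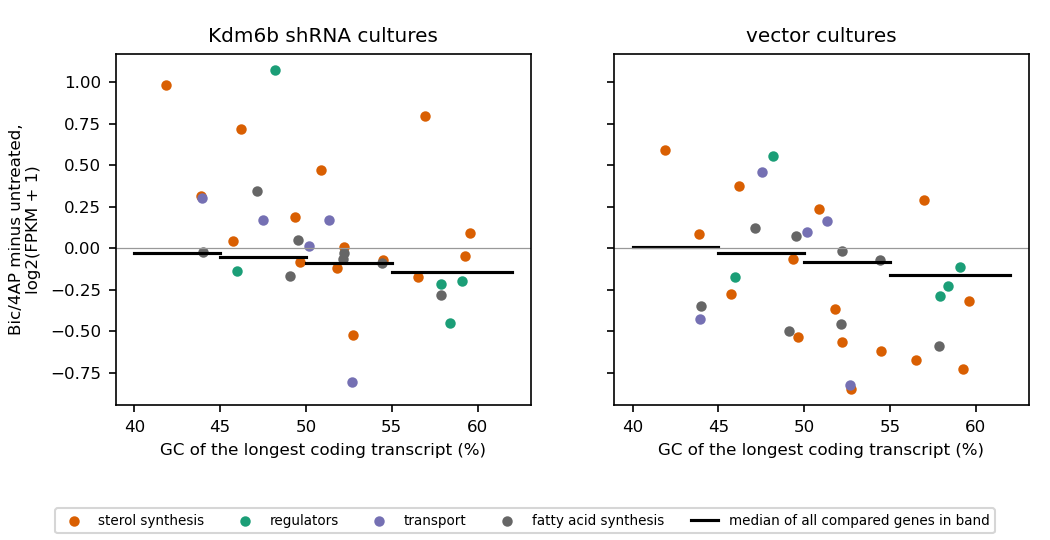
Bic/4AP minus untreated, in log2(FPKM + 1), against the GC percent of the longest coding transcript for the 33 genes in shRNA (left) and vector cultures (right). Black lines are medians of all compared genes in GC bands, which lie at -0.14 and -0.16 above 55% GC.

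The word paired by the hairpin's antisense strand, ACAAACT, was in the annotated 3′ UTR of 5 of 33 members (15.2%), namely Mvk, Lss, Hsd17b7, Stard4 and Abca1, and of 12.8% of 11757 genes. The members with it had medians of 0.19 with Bic/4AP and -0.26 untreated, shRNA minus vector. The 28 without it, Acly and Mvd among them, had medians of 0.00 and -0.35. Over all genes with the word the medians were 0.03 and 0.04, and over those without it 0.03 and 0.05.

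A further list of 46 pathway genes held 40 that were compared. In vector cultures 4 of the 40 were past 0.32 upwards and 10 downwards with Bic/4AP, beside 11.1% and 16.8% of all genes. In shRNA cultures 8 were past it upwards and 6 downwards, beside 8.18% and 13.6% of all genes. Sc4mol, a methyl oxidase that acts later in the pathway than Cyp51, had 258 and 140 FPKM in shRNA cultures with and without Bic/4AP. In vector cultures it had 283 and 169 FPKM (differences of 0.87 in shRNA and 0.74 in vector cultures). Gpam, which starts glycerolipid synthesis, had 10.9 and 17.8 FPKM in shRNA cultures, against 13.3 and 23.6 FPKM in vector cultures (-0.66 and -0.78). Mylip, an LXR target that degrades lipoprotein receptors, stood at -0.82 and -0.62. It had 2.15 and 4.57 FPKM in shRNA cultures, whose bounds overlapped, against 2.74 and 4.73 FPKM in vector cultures. Vldlr, one of those receptors, stood at -0.62 and -0.78. The elongase genes Elovl5 (0.66 and 0.52) and Elovl1 (0.43 and 0.61) were higher. Abcg4, a sterol exporter, stood at -0.72 and -0.35. Ch25h, which makes the LXR ligand 25-hydroxycholesterol, had 1.40 and 0.14 FPKM in shRNA cultures, against 0.707 and 0.275 FPKM in vector cultures (1.07 and 0.42). It reached an FPKM of 1 in the treated shRNA library only. It therefore entered the counts of this list through the library where it was highest.

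Between hairpin and vector, 6 of the 40 were past 0.32 upwards and 7 downwards with Bic/4AP, beside 9.74% and 7.92% of all genes. Untreated, 2 were past it upwards and 9 downwards, beside 13% and 9.37%. Several of these differed to a like extent in both states. Mbtps2, the site-2 protease that releases SREBP, had 4.19 and 4.83 FPKM in shRNA cultures with and without Bic/4AP, against 8.50 and 10.3 FPKM in vector cultures (-0.87 with Bic/4AP and -0.95 untreated). Mbtps1, the site-1 protease that acts before it, stood at 0.23 and 0.31. Cyp46a1, the neuronal enzyme that turns cholesterol into its exported form, had 28.0 and 32.3 FPKM in shRNA cultures, against 53.1 and 61.2 FPKM in vector cultures (-0.90 and -0.90). Abcg4 had 3.91 and 7.10 FPKM in shRNA cultures, against 11.0 and 14.3 FPKM in vector cultures (-1.29 and -0.92). On the higher side, Erlin2, which takes part in sterol-dependent degradation in the endoplasmic reticulum, had 126 and 129 FPKM in shRNA cultures, against 74.6 and 73.2 FPKM in vector cultures (0.75 and 0.81). Soat1, which esterifies cholesterol for storage, had 20.6 and 18.3 FPKM in shRNA cultures, against 13.6 and 11.7 FPKM in vector cultures (0.56 and 0.60). For the difference of the responses the list had a median of 0.07, with 3 of 40 past 0.32 upwards and 1 downwards, Abcg4 (-0.37). Among the 3 were the late sterol desaturase gene Sc5d (0.51) and Ch25h (0.65). Ch25h was compared only because of its level in the treated shRNA library, which raises this same difference.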

How the data were processed

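PolyA RNA of 4 cultures was sequenced, 1 library per condition, from Illumina TruSeq libraries per the labels. Mouse build mm9 and the tools Cufflinks 2.0.2, TopHat2 2.0.8b and CASAVA 1.8 are listed, with no role, in the submitters' processing notes. The annotation and the use of strand are not given in the sources used here. The authors' deposited tables give an FPKM with its bounds in each of 22878 rows (22492 symbols), in the Cufflinks format, and no read totals.

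Rows were joined by symbol and locus. FPKM were summed per symbol, although each of the 33 genes had 1 row. Of the 22492 symbols, 780 with failed rows or small RNA names were left out, none of them a member. Genes reaching 1 FPKM in any library were compared in log2(FPKM + 1), a pseudocount of 1, without further scaling. No test or p-value was possible. The functions were tested on simulated data. The members and gene lists were chosen with earlier results of these data known. The genes given with 4 values were those past a ratio of 5 to 4 in a comparison and the 3 largest and smallest differences of each. From the further list, the 3 largest and smallest were named, except 1 gene that is not reported here. Alternatives changed the pseudocount (0.1 or 5), the filter (none or 5), the scaling, the row rule, or required bounds not to overlap. The limits for a moved value were set after the data were seen. Promoters came from RefSeq (GRCm38.p6) and transcripts from GENCODE M21, the longest coding one per gene, found for 11768 of 13458 genes (87.4%), and no coordinates were moved between builds. Python 3.11.15, numpy 2.4.6, pandas 2.3.3 and scipy 1.17.1 were used.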

Additional observations from a re-analysis of the deposited data

Results flagged for a closer look

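The following genes went in opposite directions in the 2 backgrounds or the 2 states, with the authors' bounds of both library pairs apart. The value given is the difference between the 2 differences, and none of them was tested. Only the 33 members were searched in this way, so the share of all genes that would be listed is not known. With Bic/4AP, Stard4 was higher in shRNA (0.30) and lower in vector cultures (-0.43), a gap of 0.73. Sqle was at 0.19 in shRNA and -0.07 in vector cultures, a gap of 0.26, although its vector sign turned under another scaling.

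Against vector, the hairpin libraries of 5 of the 33 genes lay higher with Bic/4AP and lower untreated, with bounds apart. How many of all genes did so was not counted. Small differences can be listed, such as that of Scd1 untreated (-0.06), so whether 5 is a large number cannot be said. Stard4 was at 0.21 with Bic/4AP and -0.52 untreated (0.73), Lss at 0.14 and -0.43 (0.57), Mvk at 0.15 and -0.26 (0.41), Sqle at 0.09 and -0.17 (0.26) and Scd1 at 0.16 and -0.06 (0.22). These gaps are by construction the same as those between the firing responses.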

How the results depend on the processing

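No paired analysis was possible because there was 1 library per condition, and for the same reason no library could be left out. Filters of 0 or 5 FPKM and the row rule changed no value, since every member passed and had 1 row, and requiring bounds apart changed no count. No called difference changed direction under any alternative. A median was taken as moved past the members' median bound half-width, and a count past 1.5 times. Median-ratio scaling gave medians under Bic/4AP in vector cultures of -0.24 (sterol), -0.10 (regulators) and -0.14 (fatty acid), and in shRNA cultures of 0.14, -0.10 and 0.042, with 0.26 for transport. It gave shRNA minus vector medians of 0.13 (regulators, untreated), -0.35 (fatty acid, untreated) and -0.16 (fatty acid, Bic/4AP), and 1 higher member both untreated and with Bic/4AP. Upper-quartile scaling gave -0.17 (fatty acid, vector), and in shRNA cultures -0.14 (regulators) and 0.0032 (fatty acid). Scaling to a common sum gave -0.086 for fatty acid genes in shRNA cultures. A pseudocount of 5 gave untreated hairpin medians of 0.22 (transport) and -0.25 (fatty acid), and 1 higher member untreated and 0 with Bic/4AP. By construction, scaling shifts all members alike (the median of all genes shifted by at most 0.08), and a pseudocount of 5 damps low levels. In the difference of responses, 11 to 17 members were past a ratio of 5 to 4. Read totals were not used, so precision rests on the authors' bounds.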
